A study of Saccharomyces cerevisiae with 2 samples.

Results

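The 6 genes described here encode the cell surface sensors of the cell wall integrity pathway of budding yeast, Saccharomyces cerevisiae: WSC1 (YOR008C, listed in RefSeq as SLG1), WSC2 (YNL283C), WSC3 (YOL105C), WSC4 (YHL028W), MID2 (YLR332W) and MTL1 (YGR023W). They were taken by their systematic names from a table of 6207 gene features, on which each was represented by a single feature. All 6 had a value in the first comparison and 4 of the 6 in the second, in which MTL1 and WSC4 had none. The first comparison set RNA of an msg5 deletion strain against RNA of wild type, both untreated. Both cultures grew in rich medium (YPD) at 24 °C for 2 h 30 min after dilution to an optical density of 0.2, and were collected 2 h after that. The second set the msg5 deletion exposed to alpha factor, the mating pheromone that a cells sense, against the msg5 deletion without it, so that both RNAs of this comparison came from cells lacking MSG5. Here the cultures grew for 4 h and were collected after a further 90 min, the treated one with alpha factor at what the labels give as 50 mM. The labels name the wild type as BY4741, a laboratory strain of mating type a. No wild type treated with alpha factor was analysed here.

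Yeast cells are held in shape by a wall of glucan, chitin and mannoproteins, and they monitor it through proteins that span the plasma membrane. Each sensor has an outer part rich in serine and threonine that carries short mannose chains, a single membrane-spanning helix and a short tail inside the cell. Wsc1 and its relatives also carry an outer domain rich in cysteine, which Mid2 and its relative Mtl1 lack. When the wall is stretched or damaged, the tails recruit exchange factors that switch on the small GTPase Rho1. Rho1 then activates protein kinase C (Pkc1) and a chain of kinases that ends in the mitogen-activated protein kinase Slt2 and its transcription factor Rlm1. Msg5 is a phosphatase that removes the activating phosphates from Slt2 and from the mating kinase Fus3. Mid2 takes its name from the death of its mutants when they meet mating pheromone.

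Each value is a log2 ratio that the authors condensed from 4 two-colour arrays of 2 biological samples with swapped dyes. There is 1 value per gene and comparison, with no spread between replicates, so no difference below was tested, and precision is limited by how few arrays there were. The sensor genes and the gene lists below were chosen with earlier results of these data known, so counts among them are descriptions only. A difference is called here at a fold of at least 1.5. Its size can be read against the difference between features of 1 gene and against the median over all genes. The first was taken from condensed values of the same cultures, so it leaves out the spread between cultures. The second is an offset and not an error. Genes spotted as several features gave values that differed by a median of 0.20 on the log2 scale in the deletion comparison (25 genes) and by 0.29 with alpha factor (24 genes), with the largest differences at 0.61 and 0.68. The median over all genes was -0.07 for the deletion (4969 genes) and -0.05 with alpha factor (4597 genes). MSG5 itself stood at -2.51 in the first comparison, the lowest gene there, which checks the label of the deletion. In bulk RNA a change in the share of cells in one state and a change of RNA per cell cannot be told apart.

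The deletion comparison asked which transcripts differ in cells that lack the phosphatase and meet no pheromone. Both members of the MID2 family were at least 1.5-fold higher in the msg5 deletion than in wild type, whereas no gene of the WSC family was. MTL1, whose product is related to Mid2 and is known for a role under oxidative stress, had a log2 ratio of 0.76 and was 1.69-fold higher in the deletion. Only 1.71% of all genes had a higher value. MID2 had a log2 ratio of 0.62, or 1.53-fold higher, with 2.46% of genes above it. These 2 of the 6 sensor genes reached 1.5-fold higher, against 2.84% of all genes, and 0 of the 6 reached 1.5-fold lower, against 3.08% of all genes. MID2 was just past the limit, which lies at 0.58 on the log2 scale, and 0 of the 6 genes reached 2-fold in either direction, against 0.785% of all genes higher and 0.262% lower.

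The 4 genes of the WSC family lay close to the median gene or below it. WSC1, whose product is the main sensor of heat and of wall stress during growth, had a log2 ratio of 0.0115 (1.01-fold), and WSC2 had one of -0.034. Of all genes, 34.8% were higher than WSC1 and 43.3% higher than WSC2, so that both sat close to the median gene. WSC3, the gene most closely related to WSC2, had a log2 ratio of -0.35 and was 1.27-fold lower in the deletion, with 12.1% of genes below it. WSC4, described also as a protein of the endoplasmic reticulum membrane, had the lowest value of the family at -0.53, or 1.44-fold lower, with 4.17% of genes below it. The family thus spanned 0.54 on the log2 scale without a member past 1.5-fold. At a looser limit of 0.32 on the log2 scale, WSC3 and WSC4 counted as lower, which is 2 of the 6 sensor genes against 13.8% of all genes, while the higher ones were MTL1 and MID2 as before, against 6.98% of all genes.

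**Figure D1:**
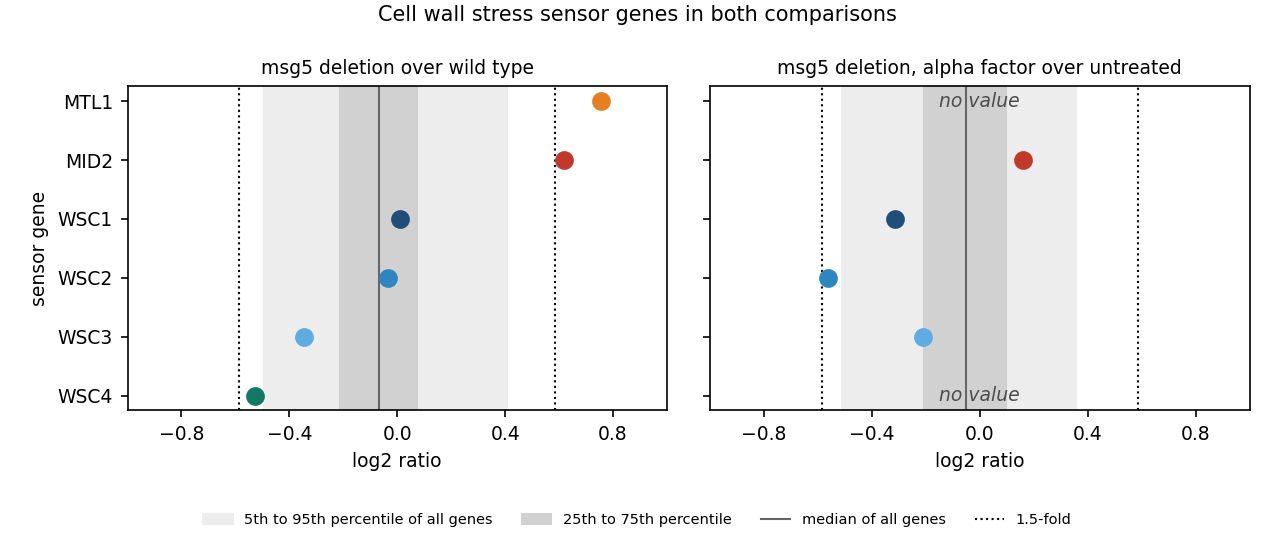
Log2 ratios of the 6 sensor genes (points) in the msg5 deletion over wild type (left) and in the msg5 deletion with alpha factor over untreated (right); the dark and light bands hold the middle and outer parts of all genes, the grey line is the median of all genes and the dotted lines mark 1.5-fold. MTL1 (0.76) and MID2 (0.62) lie beyond the upper dotted line on the left, and on the right MID2 (0.16) is the only measured sensor gene above 0.

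Ordered by value, the genes ran MTL1, MID2, WSC1, WSC2, WSC3 and WSC4, over a range of 1.28 on the log2 scale. MTL1 and MID2 were 0.14 apart and WSC1 and WSC2 0.045 apart, both less than the 0.20 by which features of 1 gene typically differed. WSC3 and WSC4 were 0.18 apart, also within it. The step from MID2 down to WSC1 was the widest at 0.61, and that from WSC2 to WSC3 was 0.31. The widest step was as large as the largest difference seen between features of 1 gene (0.61). The pair of relatives MTL1 and MID2 therefore stood together at the top. The pair of relatives WSC2 and WSC3 differed by more than features of 1 gene typically did, but by less than the largest such difference.

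The genes lie on chromosomes XV (WSC1 and WSC3), XIV (WSC2), VIII (WSC4), XII (MID2) and VII (MTL1). The values of their neighbours are set beside them here, and whether a whole stretch moved was not tested. Of 12 next protein-coding genes, 1 on each side of each sensor gene, 9 had a value in the deletion comparison. These lay between -0.19 and 0.26, and 0 of them reached 1.5-fold, against 2.84% of all genes higher and 3.08% lower. With 9 genes at these shares, a count of 0 says little. MTL1, at 0.76, stood between DPC29 at -0.0058 and THG1, of transfer RNA maturation, at 0.040. MID2, at 0.62, stood between CHS5, of chitin synthase transport, at -0.19 and RPS25B, a ribosomal protein gene, at -0.17. WSC4, at -0.53, stood between OCA5 at -0.013 and RIM101, a transcription factor of the alkaline response, at 0.26. The neighbours of WSC3 had no value, and of those of WSC1 only SGT2 had one, at 0.10.

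A further feature lies at the MID2 locus itself. JIP3 (YLR331C) is annotated on the opposite strand, and in the R64 assembly at least 90% of its span falls inside MID2. JIP3 had a log2 ratio of -0.49 in the deletion, against 0.62 for MID2, so that features annotated for overlapping stretches of DNA differed by 1.11 and in direction. Among 17 such pairs of genes on opposite strands in R64, 8 had both values in this comparison, with a median difference of 0.10, and the pair of MID2 and JIP3 differed most. JIP3 had no value with alpha factor. Which strand and which bases the array features represent is not given in the sources used here, and the part that the overlap plays in the MID2 value was not tested.

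**Figure D2:**
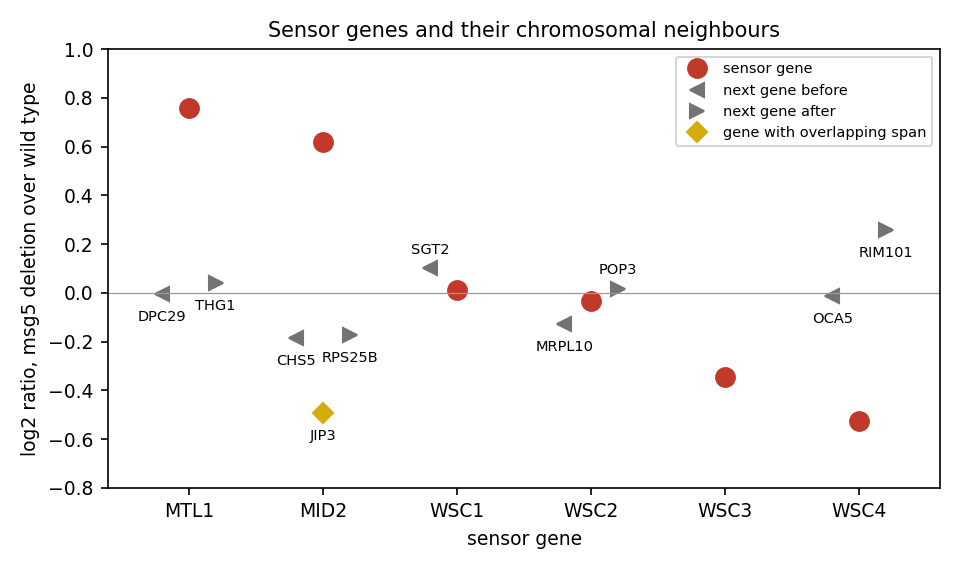
Log2 ratios in the msg5 deletion over wild type (y axis) for each sensor gene (red circles), the next protein-coding genes on either side (grey triangles) and the gene whose span overlaps MID2 (yellow diamond), with neighbours shown only where a value exists. The 9 neighbours lie between -0.19 and 0.26, while JIP3 (-0.49) lies opposite to MID2 (0.62).

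The second comparison asked how msg5 deletion cells respond to alpha factor. Its direction is likely treated over untreated, since the treated RNA is the second channel just as the deletion is in the first comparison. Genes known to be induced by pheromone lay far above 0, with a list median of 1.37. Of 8 named as a check, 7 were at least 2-fold higher, against 0.37% of all genes (0.261% were as much lower). The list was chosen with earlier results of these data known, so it is not independent support for the direction. The same list was also high in the deletion comparison, where no pheromone was added, with a median of 1.91. There 7 of the 8 were at least 2-fold higher, against 0.785% of all genes. Were the ratio the other way round, each direction stated for this comparison would turn over. Its folds hold only if the logarithm is to base 2, for which the evidence is weaker than in the first comparison.

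The 3 measured WSC genes were on the low side with alpha factor and MID2 was on the high side. WSC2 had the lowest log2 ratio of the sensor genes at -0.56, 1.48-fold lower in treated than in untreated cells, and 3.70% of all genes lay below it. WSC1 stood at -0.31 (1.24-fold lower), with 13.6% of genes below, and WSC3 at -0.21 (1.16-fold lower), with 23.9% below. MID2, the gene named for survival of pheromone, had a log2 ratio of 0.16, or 1.12-fold higher in treated cells, with 16.9% of genes above it. None of the 4 measured genes reached 1.5-fold in either direction, against 1.46% of all genes higher and 3.15% lower, and WSC2 lay just short of the limit. That count rests on base 2: read as natural logarithms, 1 of the 4 (WSC2) would be lower, against 8.92% of all genes, and read as base 10, 3 of the 4 (WSC1, WSC2 and WSC3), against 29%. At the looser limit of 0.32, 1 of the 4 counted as lower (WSC2) and 0 as higher, against 13% and 6.05% of all genes.

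In descending order the genes ran MID2, WSC3, WSC1 and WSC2. MID2 and WSC3 were 0.37 apart, more than the 0.29 by which features of 1 gene typically differed, while WSC3 and WSC1 (0.10) and WSC1 and WSC2 (0.25) were not. WSC2 and WSC3, which are close relatives, changed places between the comparisons. WSC2 was above WSC3 by 0.31 in the deletion, and with alpha factor its value minus that of WSC3 was -0.35. Both differences were smaller than the largest between features of 1 gene (0.61 and 0.68). Of the 12 neighbours, 7 had a value with alpha factor, between -0.16 and 0.24. WSC2, at -0.56, was beside MRPL10, a mitochondrial ribosomal protein gene, at 0.12, and WSC1, at -0.31, was beside SGT2, of protein targeting to membranes, at 0.043.

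The missing values of MTL1 and WSC4 bear on what the second comparison can show, since these were the highest and the lowest sensor gene of the first. Of the genes measured in the deletion, 591 had no value with alpha factor, and 14.4% of them were at least 1.5-fold higher or lower in the deletion. The share was 4.77% among the 4378 genes with both values. Deletion values of the genes without an alpha factor value were also more spread. Their interquartile range, the width of the middle part of the values, was 0.43 against 0.27. MTL1 and WSC4 belong to this wider group, whereas their ranks above were taken among all genes.

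Set side by side, the 4 genes with both values each had their own pattern. MID2 had a log2 ratio of 0.62 in the deletion and 0.16 with alpha factor. WSC1 stood at 0.0115 and -0.31, WSC2 at -0.034 and -0.56, and WSC3 at -0.35 and -0.21. The value in the deletion minus that with alpha factor was 0.53 for WSC2, 0.46 for MID2, 0.33 for WSC1 and -0.13 for WSC3, where the median over 4378 genes was -0.0099. Larger differences were found for 7.15% of genes than for WSC2, for 9.41% than for MID2 and for 15.8% than for WSC1. Untreated msg5 deletion cells form the upper RNA of the first ratio and the lower RNA of the second, but from cultures grown and collected at other times.

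**Figure D3:**
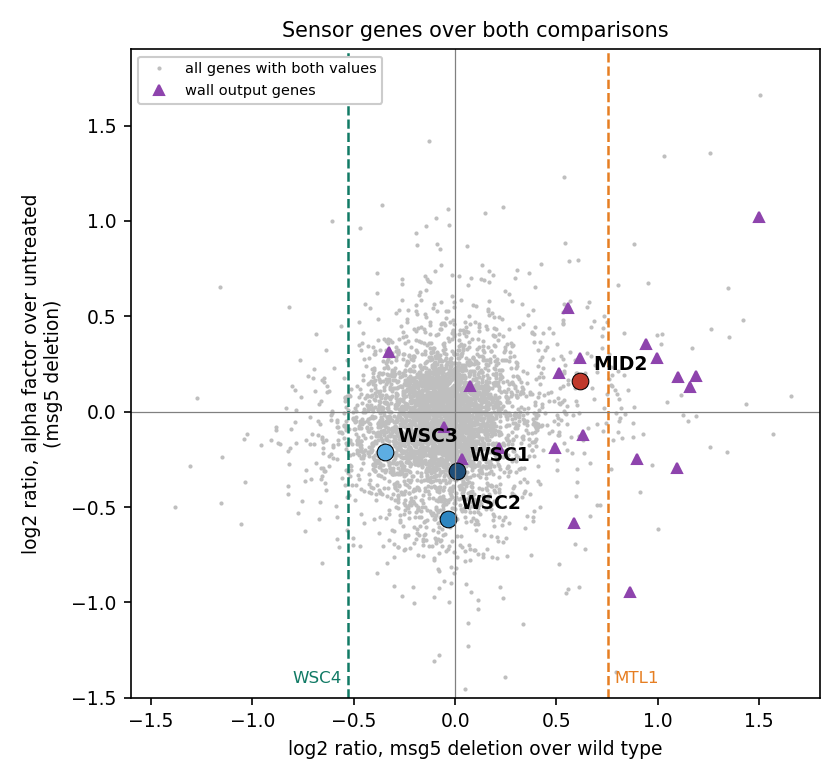
Log2 ratio in the msg5 deletion over wild type (x axis) against that with alpha factor over untreated in the msg5 deletion (y axis) for all genes with both values (grey dots; genes beyond the axes are not drawn), wall output genes (purple triangles) and sensor genes (circles), with dashed lines at the x values of MTL1 and WSC4, which have no y value. MID2 (0.62, 0.16) lies among the wall output genes, while the 3 WSC genes have x values of 0.0115 or less and y values below 0.

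The genes most like each sensor gene were found by the Euclidean distance over the 2 values, which is a weak measure with so few comparisons. MID2 lay in a thinly filled region, with 12 genes within a distance of 0.1. The nearest were BOI1, which encodes a protein of polarity and budding (0.65 in the deletion and 0.15 with alpha factor, distance 0.032), and MRD1, of ribosomal RNA processing (0.60 and 0.20, distance 0.043). WSC2 had 54 genes within 0.1, of which the nearest were CNA1, a catalytic subunit of the phosphatase calcineurin (-0.025 and -0.56), and NAN1, of the small subunit processome (-0.034 and -0.58). WSC1 and WSC3 lay in crowded regions, with 167 and 144 genes within 0.1. Nearest to WSC1 were CCC1, a vacuolar transporter of iron and manganese, and ADE12, of adenine nucleotide synthesis, and nearest to WSC3 were YHR127W and SSO2, a protein of membrane fusion at the cell surface.

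The sensors can be read beside the chain they feed. The list of chain genes was chosen with earlier results of these data known, so its counts are not independent support. ROM2, whose product binds the tails of Wsc1 and Mid2, had no value in either comparison, and BAG7 and SWI6 had none either. Of 16 genes listed for the chain from Rho1 to the transcription factors, 12 had a value in the deletion, of which 4 were at least 1.5-fold higher, against 2.84% of all genes, and 0 lower, against 3.08%. Their median was 0.099, where that of all genes was -0.07. SLT2, the kinase that Msg5 acts on, had a log2 ratio of 1.42 and was 2.67-fold higher in the deletion. TUS1, an exchange factor of Rho1, stood at 0.80, RLM1 at 0.79 and LRG1, which turns Rho1 off, at 0.75. The remaining exchange factor ROM1 (0.10) was nearest to the list's median, and RHO1 stood at 0.12 and PKC1 at 0.096. MTL1 and MID2 therefore had values close to those of TUS1, RLM1 and LRG1. The chain gene nearest in value to WSC1 and to WSC2 was SWI4, at -0.056.

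Of 12 chain genes measured with alpha factor, 0 reached 1.5-fold, against 1.46% of all genes higher and 3.15% lower. So few genes at these shares leave little room for a count above 0. The median was 0.064. SLT2 stood at 0.48, LRG1 and MKK2, a kinase above Slt2, both at 0.47, and RHO1 at 0.42. On the low side were SAC7, which turns Rho1 off, at -0.57 and MKK1, the relative of MKK2, at -0.56, next to WSC2 at -0.56.

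Genes listed as output of the wall integrity pathway, called wall output genes here, lay higher than most sensor genes in the deletion. This list, too, was chosen with earlier results of these data known, so its counts are not independent support. Of 20 such output genes, 12 were at least 1.5-fold higher, against 2.84% of all genes, and 0 lower, against 3.08%. Their median was 0.62, the same as the value of MID2. By contrast the median of the 6 sensor genes was -0.011. The output genes past 1.5-fold were PRM5 (1.501), NCW2 (1.19), SPI1 (1.16), KDX1 (1.10), YPS3 (1.10), SED1 (1.00), CWP1 (0.94), PTP2 (0.90), YPS1 (0.86), HSP150 (0.63), GFA1 (0.61) and PST1 (0.59). Among these are structural wall proteins (SED1, CWP1, HSP150 and PST1), yapsin proteases (YPS1 and YPS3) and GFA1, of the first step toward chitin. FKS2, the alternative subunit of glucan synthase, stood at -0.33, close to WSC3 at -0.35.

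With alpha factor, 1 of the 20 output genes was at least 1.5-fold higher, against 1.46% of all genes, and 1 lower, against 3.15%. The median was 0.13, with BGL2, of glucan remodelling, at 0.14. PRM5 stood at 1.02 and YPS1 at -0.95. PST1, at -0.58, was close to WSC2. The 4 measured sensor genes had a median of -0.26.

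Factors that modify or bind the sensors had list medians near the middle of all genes, with some members further out on either side. Of 10 genes for O-mannosyltransferases, which attach the mannose chains, and for known partners, 9 had a value in the deletion, with a median of -0.088. Of these, 1 was at least 1.5-fold lower, against 3.08% of all genes, and 0 were higher, against 2.84%. The lower one was ACK1, which acts upstream of Pkc1, at -0.59, just past the limit. PMT1, PMT2 and PMT4, for mannosyltransferases, stood at -0.054, -0.0087 and -0.20, and ZEO1, a partner of Mid2, at -0.14. The highest were PMT6 at 0.39 and PMT3 at 0.26. PMT5 was nearest to the list's median (-0.088). With alpha factor 0 of 8 reached 1.5-fold, against 1.46% of all genes higher and 3.15% lower. The median was -0.055, with PMT6 highest at 0.53 and ZEO1 at -0.0092.

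Surface sensors of other pathways were listed for comparison. Of 7 listed genes, 5 had a value in the deletion, with a median of -0.25. Of these, 0 reached 1.5-fold, against 2.84% of all genes higher and 3.08% lower. SLN1 and SHO1, both sensors of high osmolarity, stood at -0.25 and -0.29, and MID1, a calcium channel subunit found in the same search for pheromone-induced death as MID2, at -0.40. MSB2, a mucin of the filamentation and osmolarity pathways, was the highest at 0.15, below MID2 and MTL1. With alpha factor 6 had a value, with a median of -0.18. HKR1, another mucin of the osmolarity pathway, was at least 1.5-fold higher (0.71), against 1.46% of all genes. Of the 6, 0 were lower, against 3.15% of all genes. MID1 stood at -0.25 and SHO1 at -0.21, the same as WSC3. In the deletion HKR1 stood at 0.020.

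**Figure D4:**
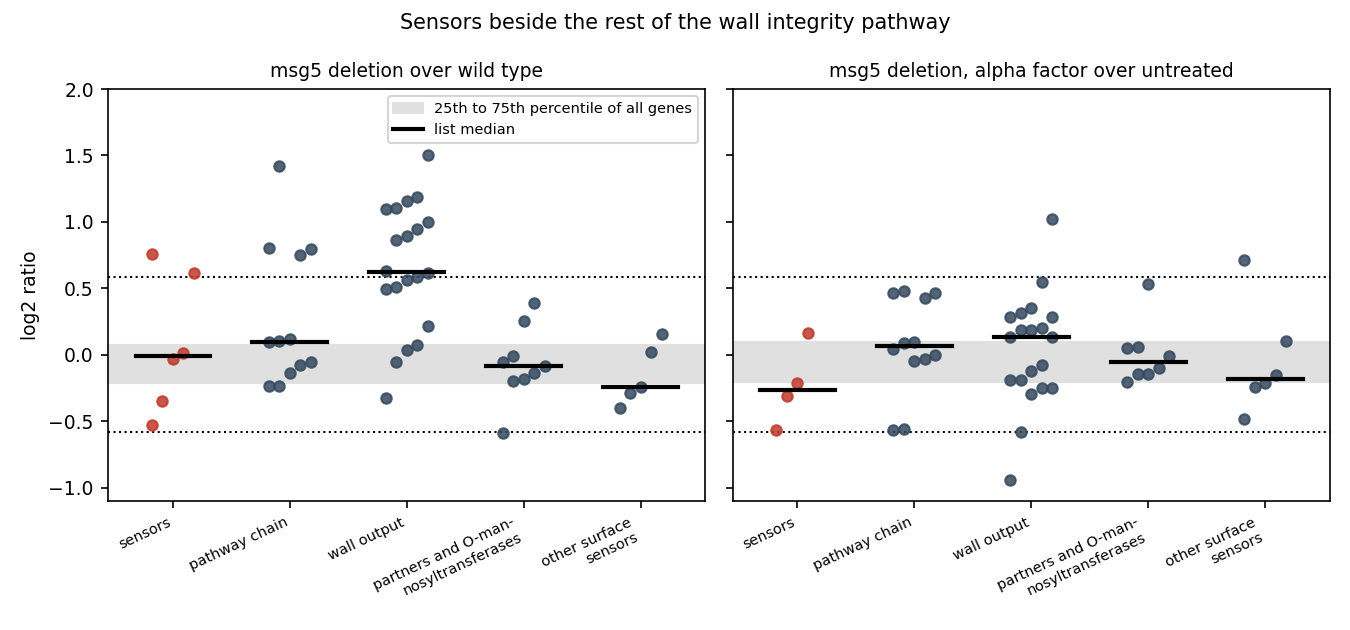
Log2 ratios of the sensor genes (red) beside the pathway chain, wall output genes, partners with O-mannosyltransferases, and other surface sensors (dark points, 1 per gene), in the msg5 deletion over wild type (left) and with alpha factor over untreated in the msg5 deletion (right); bars are list medians, the band holds the middle part of all genes and dotted lines mark 1.5-fold. In the deletion the wall output genes have a median of 0.62 and the sensor genes one of -0.011, with MTL1 and MID2 apart from the WSC genes.

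The mating type of the cells could not be read from ratios, which give no level. Of 5 genes listed as specific to a cells, 2 were at least 1.5-fold higher in the deletion, against 2.84% of all genes. They were BAR1 (0.65) and MFA1 (1.03), while STE2 stood at 0.11, STE6 at 0.10 and MFA2 at -0.097. MFA1 was also among the pheromone check genes above. With alpha factor 2 were at least 1.5-fold higher, against 1.46% of all genes, MFA1 (1.34) and MFA2 (0.74). There BAR1 stood at 0.55, STE2 at 0.25 and STE6 at -0.17. Of 4 genes specific to alpha cells, 2 had values, SAG1 at 1.17 in the deletion and 0.34 with alpha factor, and MF(ALPHA)2 at 0.42 and 0.37. BAR1, which breaks down alpha factor, thus had nearly the same value in the deletion as MID2.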

How the data were processed

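The deposited table holds 1 log2 ratio per feature and comparison. Per the labels, images were analysed in GenePix Pro 5.0, and the authors condensed 4 arrays into each value. For the normalization, the filters, the array design and the genome build, the answer is not given in the sources used here. The base was read from the deposited values: in the deletion comparison 100% of 5308 were base 2 logarithms of ratios with 3 decimals (tolerance 5.5e-05), where chance gives 7.52%. With alpha factor the same grid held for 7.98% of 4877 values, where chance gives 7.52%, and so gave no base. With 4 decimals, base 2 held for 80.3% of all values (chance 74.2%) and for 79.1% of the 705 below -0.3 (chance 54.3%).

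Of 6207 gene features, 5654 matched the RefSeq R64 table by locus tag, 57 by an older name and 496 not at all. Features of a gene were averaged (Python 3.11.15, pandas 2.3.3, numpy 2.4.6), and the code was tested on simulated data. R64 positions served to find neighbours and overlapping spans, and none is printed. Sequences were not used here, so the planned protein and promoter features were not computed. The members and lists were chosen with earlier results of these data known. Named genes were the sensor genes, the 2 nearest to each with both values, their neighbours, MSG5, and listed genes past 1.5-fold or nearest a list's median. Other named genes, the choice of non-overlapping protein-coding neighbours and the search for overlapping pairs came after the values were seen. Alternatives were centring, the listed feature alone, adjustment for table order (running median over 201 features), other folds, other logarithm bases and the sign turned.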

Additional observations from a re-analysis of the deposited data

How the results depend on the processing

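Each comparison gives 1 value per gene, so no replicate could be left out and the depth of signal over background is unknown. No paired analysis was possible because each comparison is a single condensed sample. Each sensor gene had a single feature, so taking the listed feature alone could not change its value. Centring moved all genes by the same small offset, from medians of -0.068 in the deletion and -0.046 with alpha factor. That offset is below the typical difference between features of 1 gene by construction. With adjustment for table order, each sensor gene's value also moved by less than that difference. The counts of sensor genes past 1.5-fold did not change with either. At 2-fold, 0 sensor genes were higher in the deletion. At a limit of 0.32 on the log2 scale, 2 were lower in the deletion (WSC3 and WSC4) and 1 with alpha factor (WSC2). If the alpha factor ratio ran the other way, WSC1 stood at 0.31, WSC2 at 0.56, WSC3 at 0.21 and MID2 at -0.16, and the deletion value minus the turned one was -0.30, -0.60, -0.56 and 0.78. Read as natural logarithms, 1 sensor gene would be at least 1.5-fold lower with alpha factor, WSC2 (1.76-fold). Read as base 10, 3 would be, WSC2 (3.66-fold), WSC1 (2.06-fold) and WSC3 (1.63-fold). At 2-fold, 1 of 12 chain genes and 5 of 20 output genes were higher in the deletion, against 0.785% of all genes. With alpha factor, 0 of 20 output genes were lower, against 0.261% of all genes. There 0 of 6 other surface sensors were higher, against 0.37%. ACK1 was not past 2-fold in the deletion, and centring also left 0 partners at least 1.5-fold lower there. Centring gave 2 of 20 output genes at least 1.5-fold higher with alpha factor. The genes nearest to each of the 4 sensor genes were the same when each column was divided by its median absolute deviation.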
